A study of Homo sapiens with 11 samples.

Results

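The genes described here are the 261 genes of human chromosome 19 whose symbol is ZNF followed by a number and at most 1 letter, out of 58699 genes in the authors' table of total RNA. GENCODE release 29 annotates 246 of them as protein-coding and 15 as pseudogenes. They were measured in HCT116, an established line of human colorectal cancer cells. The cells carried a control siRNA that targets luciferase (siLuc) or one that targets Staufen1 (siStau1), a protein that binds double-stranded RNA. The labels give decitabine (DAC) at 500 nM over 5 days as the treatment and DMSO as its control. Each combination of siRNA and treatment had 2 libraries of total RNA, which makes 4 groups: siLuc and siStau1 cells with DMSO, and both with DAC. How long the siRNA acted is not given in the sources used here. Decitabine is a cytidine analogue that is built into DNA, traps DNA methyltransferases and so lowers CpG methylation in dividing cells. By its title, the series concerns an immune response to double-stranded RNAs that endogenous retroviruses give rise to when DNA methylation is inhibited.

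Most of these genes encode proteins with an array of C2H2 zinc fingers, each of which folds around a zinc ion and contacts a few bases of DNA, often behind a KRAB domain at the N-terminus. The KRAB domain recruits the corepressor TRIM28 (KAP1), which brings the histone methyltransferase SETDB1, heterochromatin protein 1 and histone deacetylases to the bound DNA. Many family members bind transposable elements, endogenous retroviruses among them, and the genes lie in tandem clusters that grew by duplication. In the reference annotation, the proteins of the 246 coding genes held a median of 12 finger motifs (2 cysteines and 2 histidines in C2H2 spacing). A KRAB-box motif was found in 185 of the 246 (75.2%), against 82 of 263 (31.2%) for the ZNF genes on other chromosomes, whose median was 9 fingers. The motif is a short pattern, so a protein without it may still have a KRAB domain.

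Promoters are shown for 5 of the genes because decitabine acts on CpG sites: ZNF880 and ZNF529, which had among the largest rises, ZNF708, which had the only fall that passed the authors' test, and ZNF841 and ZNF93, chosen after their values were seen. Each runs from 250 bases before to 50 bases after the start given by RefSeq (GRCh38.p14), on the gene's own strand, with every CpG in capitals. ZNF880 (chr19:52369673-52369972, plus strand, 20 CpG), ZNF529 (chr19:36605208-36605507, minus strand, 28 CpG) and ZNF841 (chr19:52095716-52096015, minus strand, 22 CpG) were nearly absent from the DMSO groups and present in both DAC groups. ZNF708 (chr19:21329361-21329660, minus strand, 9 CpG) was expressed in the DMSO groups. ZNF93 (chr19:19900696-19900995, plus strand, 10 CpG), known for repressing LINE-1 elements, stayed near 0 in all 4 groups. RefSeq lists over 1 start for 35 of the genes, ZNF529 among them, and the first entry was used throughout.
ZNF880: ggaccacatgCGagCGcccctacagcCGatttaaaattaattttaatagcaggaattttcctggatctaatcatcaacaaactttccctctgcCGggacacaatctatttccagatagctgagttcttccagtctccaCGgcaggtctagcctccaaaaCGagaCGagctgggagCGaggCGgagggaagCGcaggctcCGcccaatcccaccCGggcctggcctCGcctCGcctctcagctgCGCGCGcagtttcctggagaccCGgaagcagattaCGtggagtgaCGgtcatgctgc
ZNF529: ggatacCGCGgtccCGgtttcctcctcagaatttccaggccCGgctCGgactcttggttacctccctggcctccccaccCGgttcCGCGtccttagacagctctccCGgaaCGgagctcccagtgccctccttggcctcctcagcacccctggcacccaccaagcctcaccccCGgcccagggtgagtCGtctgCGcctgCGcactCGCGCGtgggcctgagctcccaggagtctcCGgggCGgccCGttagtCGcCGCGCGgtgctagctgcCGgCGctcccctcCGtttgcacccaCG
ZNF841: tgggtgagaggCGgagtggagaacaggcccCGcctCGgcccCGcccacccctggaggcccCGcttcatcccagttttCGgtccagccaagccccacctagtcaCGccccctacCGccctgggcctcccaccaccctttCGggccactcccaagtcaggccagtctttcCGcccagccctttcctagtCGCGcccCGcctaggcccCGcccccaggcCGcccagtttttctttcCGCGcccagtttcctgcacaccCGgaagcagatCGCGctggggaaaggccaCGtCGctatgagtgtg
ZNF708: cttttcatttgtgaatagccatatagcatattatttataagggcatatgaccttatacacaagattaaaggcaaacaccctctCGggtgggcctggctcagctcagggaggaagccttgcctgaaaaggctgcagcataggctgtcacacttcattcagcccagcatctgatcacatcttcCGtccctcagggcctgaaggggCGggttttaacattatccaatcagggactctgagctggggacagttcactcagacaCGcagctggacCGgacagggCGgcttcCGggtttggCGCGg
ZNF93: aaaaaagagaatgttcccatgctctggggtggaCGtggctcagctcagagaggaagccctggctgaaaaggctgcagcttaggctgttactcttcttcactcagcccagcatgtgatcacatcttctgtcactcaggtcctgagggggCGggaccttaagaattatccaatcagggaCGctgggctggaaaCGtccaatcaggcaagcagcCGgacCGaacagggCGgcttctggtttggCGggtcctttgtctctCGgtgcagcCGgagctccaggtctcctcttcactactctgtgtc
Since ZNF841 and ZNF93 were picked with their values in view, the CpG counts of these 5 are no comparison of classes. ZNF708 and ZNF93 lie in the same pericentromeric cluster.

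The deposited table gives 1 FPKM value (fragments scaled to transcript length and library size) per group and none per library. Replicate spread is therefore missing, and the sequencing depth is not known. The only tests are the authors' own. Changes below are called where the q-value in the authors' deposited table is under 0.05, and the other values are descriptions. The siRNA target gave little check of the labels. STAU1 had 35.5 (siLuc) and 30.0 (siStau1) FPKM with DMSO and 33.7 and 27.1 FPKM with DAC, and in the authors' deposited table the knockdown difference had q = 0.767 in DMSO and 0.685 in DAC. Colon epithelial markers (EPCAM, CDH1, KRT8, KRT18, KRT19, VIL1) summed to between 2146 (siStau1 DMSO) and 8191 FPKM (siLuc DAC), with VIL1 under 0.2 FPKM in every group. In siLuc cells 5 of these 6 were higher with DAC and EPCAM was lower. KRT19 had 537 FPKM with DMSO and 1419 with DAC, and EPCAM 259 and 117 (q = 0.00162 and 0.0157 in the authors' deposited table). The sums of 3 blood, 3 fibroblast and 2 endothelial markers were at most 1.74 FPKM in each DMSO group. In the DAC groups they reached 17.6 FPKM for blood, almost all of it CD68, 10.1 for fibroblast and 1.54 for endothelium. Their part in the results was not tested. In bulk RNA, fewer cells that express a gene and less RNA per cell cannot be told apart.

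In control cells the family was expressed at low levels. Of the 260 genes with a usable level, 138 had at least 1 FPKM in siLuc DMSO, 90 were under 0.1 FPKM and 60 were listed at 0, and the median was 1.5 FPKM. That median was 2.42 FPKM for all coding genes, 1.43 for other coding genes of chromosome 19 and 3.05 for ZNF genes elsewhere. Under 0.1 FPKM in both DMSO groups were 31.4% of the family and 30.3% of all coding genes. The same held for 29.4% of other coding genes of chromosome 19 and 22.6% of ZNF genes elsewhere. ZNF146, whose short protein is mostly zinc fingers and lacks a KRAB box, was the highest at 68.4 FPKM. ZNF121 followed at 38.5, ZNF544 at 34.2, ZNF562 at 31.1, ZNF581 at 24.9, ZNF561 at 23.5, ZNF480 at 20.6, ZNF627 at 20.2, ZNF766 at 20.1 and ZNF780A at 18.6 FPKM. These 10 held 31.4% of the 957 FPKM summed over the family, and none of them was called in any of the 4 comparisons. Over all genes tested, 13.5% and 7.46% were called with decitabine in siLuc and siStau1 cells. For the knockdown the shares were 0.799% in DMSO and 0.904% in DAC, so 0 calls among 10 genes do not set them apart. Of the 10, ZNF627 came nearest to a call, with 20.2 FPKM in siLuc DMSO and 9.70 in siLuc DAC (q = 0.0558 in the authors' deposited table). ZNF468 has 2 differing sets of values in the table and was left out of all levels and ratios. It was called in no comparison.

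Fewer of the genes were listed at 0 with decitabine. The number listed at 0 was 60 in siLuc DMSO and 16 in siLuc DAC, and 57 in siStau1 DMSO and 21 in siStau1 DAC. Genes with at least 1 FPKM numbered 138 with DMSO and 168 with DAC in siLuc cells, and 133 and 158 in siStau1 cells. The medians over the family, in the same order, were 1.5, 2.36, 1.17 and 2.07 FPKM. Those over all coding genes were 2.42, 3.14, 2.28 and 2.93 FPKM. For the other coding genes of chromosome 19 they were 1.43, 3.48, 1.19 and 2.21 FPKM, and for ZNF genes elsewhere 3.05, 3.42, 2.91 and 3.20. In all, 26 genes were at 0 in both DMSO groups and above 0 in both DAC groups, against 1 with the reverse. That is 65% of the 40 genes of the family at 0 in both DMSO groups, beside 32.2% of 3585 such coding genes and 7.91% of 30889 such genes in all. The reverse held for 1 of 11 genes of the family at 0 in both DAC groups, 2.64% of 2119 coding genes and 1.23% of 27481 genes. The summed level was 957, 1272, 941 and 1146 FPKM in the same order, or 0.16%, 0.212%, 0.167% and 0.21% of the sum over all coding genes. The share therefore had a log2 ratio of 0.40 for decitabine in siLuc cells and 0.34 in siStau1 cells. Against the sum of all genes outside the 10 highest it was 0.10 and 0.21. The share also rose among the family's chromosomal neighbours. Other coding genes of chromosome 19 held 6.34% of the coding sum in siLuc DMSO and 10.3% in siLuc DAC. In siStau1 cells they held 5.37% with DMSO and 8.2% with DAC. ZNF genes elsewhere held 0.316% and 0.335% in siLuc cells, and 0.364% and 0.345% in siStau1 cells.

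The authors' test called 22 of the 187 genes it covered as changed by decitabine in siLuc cells, 21 of them higher and 1 lower. The background over all 17504 genes tested was 13.5%, with 8.71% higher and 4.78% lower, and 11.2% of the family were called higher. Of 226 ZNF genes on other chromosomes, 13 were called higher and 8 lower. Of 836 other coding genes of chromosome 19, 171 were called higher and 1 lower. In siStau1 cells 15 of 181 genes were called, all higher (8.29%). The background there was 7.46% in either direction, with 4.56% higher and 2.89% lower. Of 224 ZNF genes elsewhere, 3 were higher and 4 lower. Of 801 other coding genes of chromosome 19, 60 were called higher (7.49%) and 1 lower, a share near that of the family. In total 29 genes were called with decitabine, 8 of them in both arms. Each of the 22 and each of the 15 had the same direction in the other arm, which uses separate libraries. Of the 22, 11 had under 0.1 FPKM in siLuc DMSO, and of the 15, 10 had under 0.1 FPKM in siStau1 DMSO. Such levels leave little room for a fall. The overlap and the shared direction were not counted over all genes, so they cannot be called particular to the family.

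The largest rise among the calls in siLuc cells was that of ZNF880, a KRAB gene with 13 fingers. In siLuc cells it was listed at 0 with DMSO and had 3.88 FPKM with DAC, and in siStau1 cells it had 0.00994 and 2.56 FPKM. In the authors' deposited table its q-value was 0.00162 in siLuc cells, the smallest the table holds, and 0.593 in siStau1 cells. Both DAC groups thus stood far above both DMSO groups, while only 1 arm passed.

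ZNF542P, an annotated pseudogene of the cluster at the chromosome's end, was at 0 with DMSO in both arms, and DAC gave 3.72 FPKM in siLuc and 2.1 FPKM in siStau1 cells (q = 0.00162 in both arms of the authors' deposited table). ZNF529 went from 0 to 2.52 FPKM between DMSO and DAC in siLuc cells, had 0.00819 and 0.778 FPKM in siStau1 cells, and passed in siLuc cells (q = 0.00162 in the authors' deposited table). ZNF256, with 15 fingers, was at 0 with DMSO in both arms, reached 1.81 FPKM with DAC in siLuc cells and 1.66 in siStau1 cells, and passed in both arms at the same q-value. ZNF542P and ZNF256 were the only genes of the family at 0 in both DMSO groups with at least 1 FPKM in both DAC groups.

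ZNF772 was low but not absent with DMSO, at 0.121 FPKM in siLuc and 0.179 in siStau1, and had 4.62 and 2.61 FPKM with DAC. Its log2 ratios were 4.42 and 3.28 (q = 0.0187 and 0.0221 in the authors' deposited table). ZNF560 had 0.00985 FPKM with DMSO and 3.0 with DAC in siLuc cells, and 0 and 2.26 FPKM in siStau1 cells, and passed in siStau1 cells (q = 0.00162, against 0.592 in siLuc cells, in the authors' deposited table). ZNF432 had 0.124 FPKM with DMSO and 2.14 with DAC in siLuc cells, and 0.107 and 1.68 FPKM in siStau1 cells, and passed in siStau1 cells only (log2 ratio 3.11, q = 0.0296 in the authors' deposited table). That a gene passed in 1 arm and not in the other does not show that the arms differ, and that difference could not be tested without values per library.

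Genes already expressed with DMSO were also among the rises, by smaller ratios. ZNF426 had 0.672 FPKM with DMSO and 5.54 with DAC in siLuc cells, and 0.702 and 4.03 FPKM in siStau1 cells (q = 0.00162 and 0.0118 in the authors' deposited table). ZNF460, ZNF699, ZNF805, ZNF574 and ZNF787 started between 2.58 and 11.3 FPKM in siLuc DMSO, had between 9.69 and 32.6 FPKM in siLuc DAC, and passed in siLuc cells. ZNF526 passed in both arms, with 3.69 and 12.8 FPKM in siLuc DMSO and DAC, and 1.83 and 6.22 in siStau1 DMSO and DAC. The remaining rises in siLuc cells were those of ZNF534, ZNF331, ZNF677, ZNF418, ZNF347, ZNF606, ZNF836, ZNF628 and ZNF579. In siStau1 cells they were those of ZNF331, ZNF677, ZNF418, ZNF132, ZNF506, ZNF461, ZNF20 and the pseudogene ZNF702P.

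Calls were more frequent among tested genes whose DMSO group was listed at exactly 0. Among genes of the family at 0 in siLuc DMSO, 10 of the 14 tested were called, against 1 of the 11 tested with a level above 0 and under 0.1 FPKM, although all of these had at least 0.5 FPKM in siLuc DAC. In siStau1 cells the counts were 9 of 14 and 1 of 10. Over all genes the shares were 56.2% and 10.4% in siLuc cells, and 55.2% and 10.4% in siStau1 cells. ZNF841, for example, had 0.00735 FPKM in siLuc DMSO and 4.41 in siLuc DAC with q = 0.566 in the authors' deposited table. In the siStau1 groups it had 0.0110 and 2.06 FPKM with q = 0.0536. A level of 0 did not always go with a call: ZNF229 was at 0 in siLuc DMSO and at 2.78 FPKM in siLuc DAC, with q = 0.119. Why such genes were not called was not tested, since replicate spread is missing.

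To describe such genes without the calls, a gene was termed switched on where it was under 0.1 FPKM with DMSO in each arm and reached 0.5 FPKM or more with DAC in each arm. These limits were chosen after the data were seen and carry no test. Of the 82 genes of the family under 0.1 FPKM in both DMSO groups, 19 were switched on (23.2%), beside 7.08% of 6043 coding genes and 1.68% of 36957 genes in all. The share was 1.49% (1 of 67) for ZNF genes on other chromosomes and 10.6% (38 of 360) for other coding genes of chromosome 19. In the reverse direction, 38 genes of the family were under 0.1 FPKM in both DAC groups. Of these, 0 had at least 0.5 FPKM in both DMSO groups. The reverse was as rare elsewhere, at 3 of 4187 such coding genes and 25 of 33432 such genes in all. It held for 0 of 218 other coding genes of chromosome 19 and 0 of 48 ZNF genes on other chromosomes. Of the 19 genes, 12 were called in at least 1 arm, 5 in both and 7 in neither. The share called in at least 1 arm, 63.2%, was near the 64% of the 428 switched-on coding genes.

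**Figure D1:**
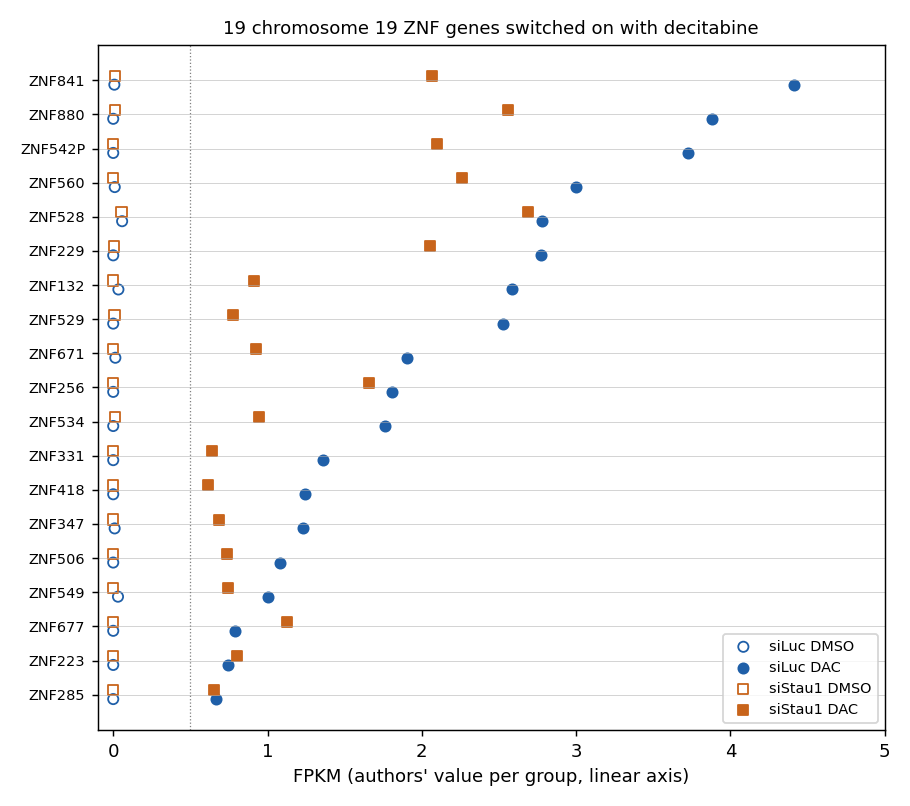
FPKM of the 19 switched-on genes in the 4 groups (linear axis; 1 authors' value per group, so no error bars); open symbols are DMSO, filled symbols DAC, circles siLuc and squares siStau1, and the dotted line marks 0.5 FPKM. All open symbols sit under 0.1 FPKM, and the siStau1 DAC square lies left of the siLuc DAC circle in 17 of the 19 genes.

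In siLuc DAC, the highest of the 19 were ZNF841 (4.41 FPKM), ZNF880 (3.88), ZNF542P (3.72), ZNF560 (3.0), ZNF528 (2.78) and ZNF229 (2.78), as the plot of their levels by group shows. ZNF528 was the one with the most signal under DMSO, at 0.0577 FPKM in siLuc and 0.0533 in siStau1 cells, beside 2.78 and 2.69 FPKM with DAC. It was not called (q = 0.554 and 0.555 in the authors' deposited table). At the lower limit, ZNF418 was just inside, with DAC levels of 1.24 (siLuc) and 0.611 (siStau1) FPKM, and ZNF606 just outside with 1.10 and 0.480. Both were listed at 0 in the DMSO groups.

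A KRAB-box motif was found in 17 of the 18 coding genes among the 19, in 42 of the 55 coding genes that were low with DMSO but not switched on, and in 125 of the 172 with at least 0.1 FPKM in a DMSO group. Among coding genes of the family under 0.1 FPKM in both DMSO groups, 17 of 59 with the motif and 1 of 14 without it were switched on. Absence of the motif does not show absence of a KRAB domain. The longest transcripts of the switched-on genes had a median GC content of 42.8%. It was 39.9% for the low genes not switched on and 42.5% for those with at least 0.1 FPKM in a DMSO group. The median number of fingers was 13, 13 and 12. No test was made of these differences, since the genes were chosen by their levels.

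RefSeq promoters were matched for 215 of the 261 genes, among them 16 of the 19 switched-on genes. CpG in the 300 bases (the dinucleotide CG, which reads the same on both strands) numbered a median of 21 in the switched-on genes, 16 in the 46 matched low genes not switched on and 21 in the 152 with at least 0.1 FPKM in a DMSO group. The median over all 27305 RefSeq promoters was 14, and 48.8% of them held at least 15 CpG. For the family as a whole the median was 20, with 74% at 15 or more. The 213 matched ZNF genes on other chromosomes had a median of 24, with 82.6% at 15 or more. Of the 67 ZNF genes elsewhere under 0.1 FPKM in both DMSO groups, 1 was switched on. Of low genes with at least 15 CpG, 14 of 40 were switched on, and of those with fewer, 2 of 22. This contrast followed the clusters in part: of 13 low genes with a promoter in the pericentromeric cluster, 12 had under 15 CpG and 0 were switched on. In the other clusters the counts were 14 of 39 and 2 of 10.

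**Figure D2:**
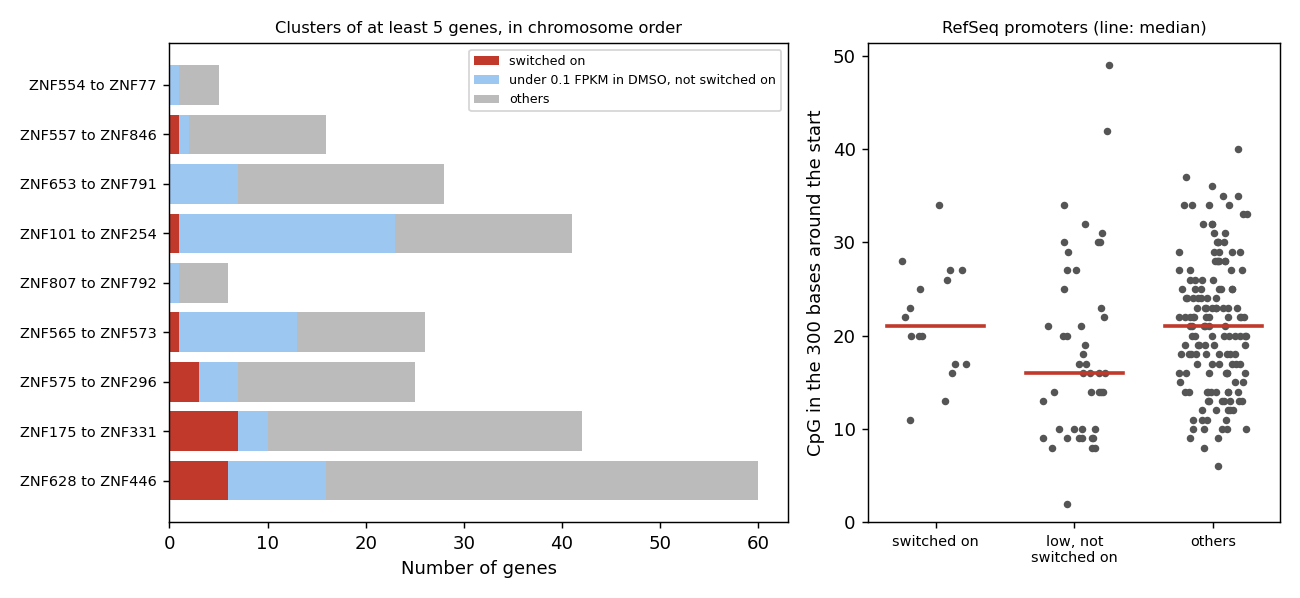
Left: number of genes in each of the 9 clusters of at least 5 genes, in order along the chromosome, split into switched on (red), under 0.1 FPKM in both DMSO groups but not switched on (blue) and others (grey). Right: CpG count in the 300-base RefSeq promoter of each matched gene by the same classes, with points spread sideways at random and the median as a line; the medians are 21, 16 and 21.

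ZNF529 and ZNF382 start close together on opposite strands and differed in level. The promoter of ZNF382 (chr19:36605063-36605362, plus strand, 27 CpG) overlaps that of ZNF529 by 155 bases. With DAC, ZNF529 had 2.52 (siLuc) and 0.778 (siStau1) FPKM, whereas ZNF382, known to be methylated in several tumour types, had 0.0468 and 0 FPKM and was at 0 with DMSO. How reads were counted by strand is not given in the sources used here, so reads where the pair overlaps could fall to either gene. Among the 7 pairs of the family with promoters that overlap on opposite strands, this was the only pair with a switched-on gene. Other switched-on genes overlap a member of the family along their length. ZNF841 overlaps ZNF432 and ZNF347 overlaps ZNF415 on the same strand, while ZNF549 overlaps ZNF550 and ZNF542P overlaps ZNF582 on the opposite strand. Reads there could likewise fall to either gene.

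The genes fell into 17 clusters when a gap of over 1 Mb was taken to separate them, and the switched-on genes were spread unevenly. ZNF175 to ZNF331 (chr19:51571298-53580269, 42 genes) held 7 of them, out of 10 that were low with DMSO. ZNF628 to ZNF446 (chr19:55476332-58481230, 60 genes) held 6 of 16, and ZNF575 to ZNF296 (chr19:43525497-45076588, 25 genes) 3 of 7. In contrast, ZNF101 to ZNF254 (chr19:19668796-24129961, 41 genes, the pericentromeric cluster) held 1 of 23, which was ZNF506, ZNF565 to ZNF573 (26 genes) held 1 of 13, which was ZNF529, and ZNF653 to ZNF791 (28 genes) held 0 of 7.

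**Figure D3:**
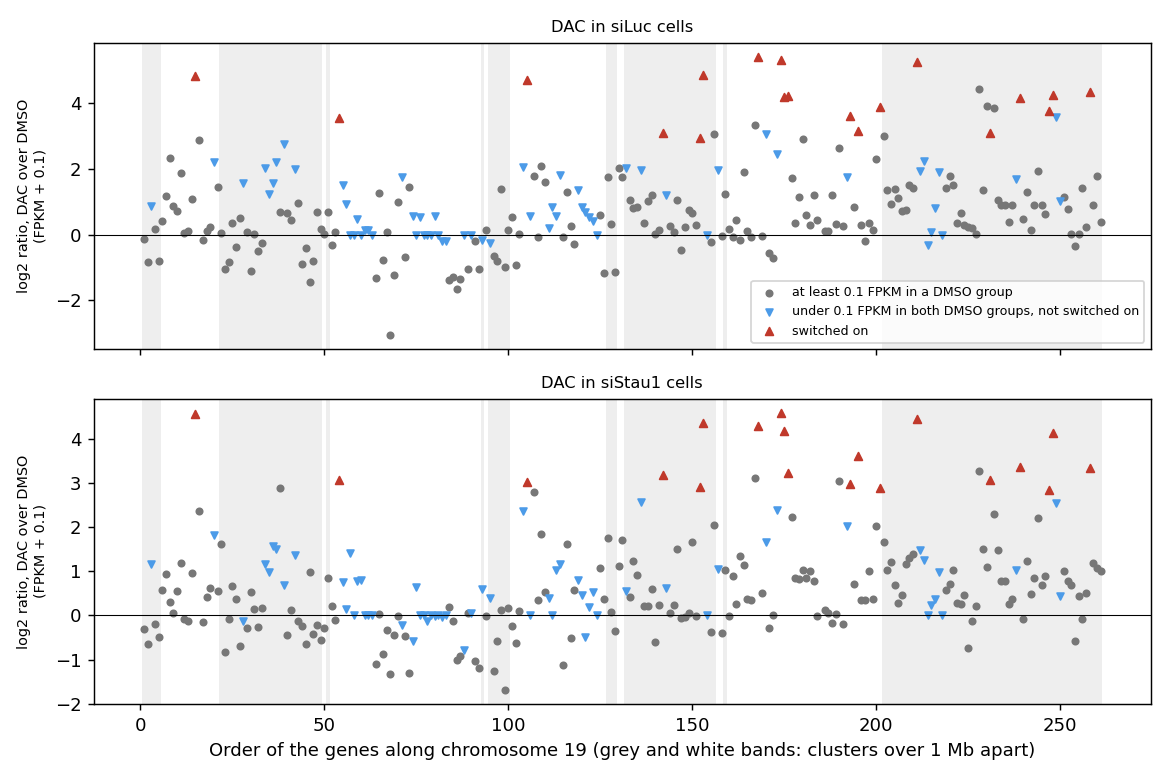
Log2 ratio of DAC over DMSO (0.1 FPKM added to each group) for 260 genes in order along chromosome 19, in siLuc cells (top) and siStau1 cells (bottom); grey and white bands are the clusters, red triangles switched-on genes, blue triangles other genes under 0.1 FPKM in both DMSO groups, grey points the rest. In the last grey band (ZNF628 to ZNF446) 39 of the 40 expressed genes lie above 0 in siLuc cells, and in the widest white band left of the middle (ZNF101 to ZNF254) 4 of 14 do.

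Ratios of the expressed genes also differed between clusters, as the plot of ratios along the chromosome shows, though not in the order of the switched-on counts. In the last cluster, 39 of 40 genes with a mean of at least 1 FPKM were higher with decitabine in siLuc cells and 36 of 40 in siStau1 cells, with median log2 ratios of 0.90 and 0.77. Of its tested genes, 10 of 51 were called in siLuc cells (19.6%) and 5 of 47 in siStau1 cells (10.6%), beside the 13.5% and 7.46% over all genes. ZNF175 to ZNF331, with the most switched-on genes, had medians of 0.33 and 0.64 and 6 of 39 and 4 of 38 tested genes called. ZNF557 to ZNF846 (16 genes), with 1 switched-on gene, had 13 of 14 expressed genes higher in siLuc cells and 11 of 14 in siStau1 cells, with medians of 0.79 and 0.56. In ZNF101 to ZNF254, 4 of 14 expressed genes were higher in siLuc cells and 3 of 14 in siStau1 cells, with medians of -0.91 and -0.46. Of the 9 expressed genes of the family with a log2 ratio of -1 or lower in siLuc cells, 7 lay in this cluster, as did 4 of the 7 in siStau1 cells.

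ZNF708, with 14 fingers and a KRAB box, was the single fall among the calls and lies in that cluster. It had 5.31 FPKM with DMSO and 0.552 with DAC in siLuc cells, and 5.82 and 2.27 FPKM in siStau1 cells. In the authors' deposited table the fall with decitabine had q = 0.00162 in siLuc cells (log2 ratio -3.05) and q = 0.0937 in siStau1 cells (log2 ratio -1.32). Other genes of the cluster also had lower values with decitabine without a call: ZNF724 had 3.57 and 1.07 FPKM in siLuc DMSO and DAC, ZNF85 2.97 and 1.12, and ZNF91 3.73 and 1.40. ZNF724 and ZNF85 were named after their values were seen.

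The base composition of the transcripts moves with these ratios and touches each of the medians. Over the 154 genes with a mean of at least 1 FPKM, Spearman's rho between the GC content of the longest transcript and the log2 ratio was 0.43 for decitabine in siLuc cells, 0.42 in siStau1 cells, -0.41 for the knockdown in DMSO and -0.58 for the knockdown in DAC. These points share their libraries, and no p is given. The family is AT-rich, with a median transcript GC content of 42.5% among the 154 genes, against 48.2% for coding genes and 60.0% for the other coding genes of chromosome 19. Each ratio is therefore also given relative to the median of coding genes in the same of 20 bins of GC content, called GC-centred below. Which of the scales is the truer one was not tested.

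The median log2 ratio of the 154 genes with decitabine was 0.34 in siLuc cells, where 114 were higher and 40 lower, and 0.30 in siStau1 cells, where 101 were higher and 53 lower. Over all 13936 genes with the same mean level the medians were 0.11 and 0.07. ZNF genes on other chromosomes (208 genes) had medians of 0.14 and -0.02, and the other coding genes of chromosome 19 (699 genes) 1.00 and 0.77. GC-centred, the family's medians were 0.68 and 0.51, with 121 and 126 of 154 higher, while those of the other coding genes of chromosome 19 were 0.10 and 0.07. Centring thus put the family above its chromosomal neighbours, which stood above it before. The ratio had the same sign in both arms for 119 of the 154 genes, 90 higher and 29 lower. This agreement was not counted over all genes, so it cannot be called particular to the family.

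**Figure D4:**
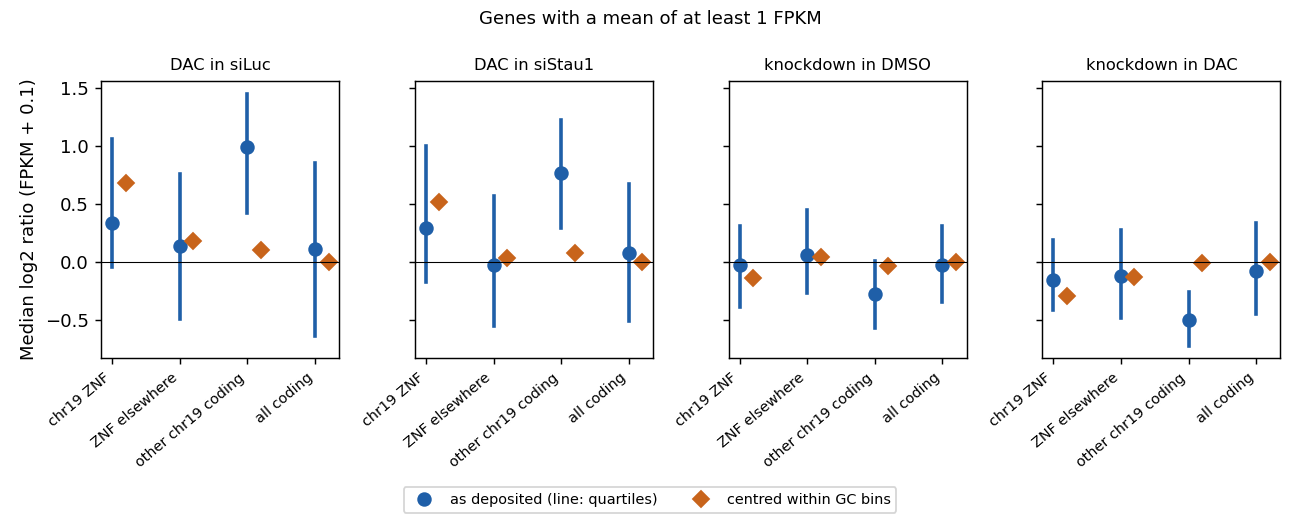
Median log2 ratio (0.1 FPKM added) in the 4 comparisons for genes with a mean of at least 1 FPKM: 154 ZNF genes of chromosome 19, 208 ZNF genes elsewhere, 699 other coding genes of chromosome 19 and 11741 coding genes. Circles are values as deposited, with lines from the first to the last quartile over genes (not an error); diamonds are GC-centred medians. For decitabine in siLuc cells the circle of the family stands at 0.34 and its diamond at 0.68, while those of the other coding genes of chromosome 19 stand at 1.00 and 0.10.

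GC centring moved the cluster medians toward each other. In siLuc cells they were -0.05 for ZNF101 to ZNF254, 0.92 for ZNF175 to ZNF331 and 0.77 for ZNF628 to ZNF446. In siStau1 cells they were 0.26, 0.93 and 0.58, so that the pericentromeric cluster turned from below 0 to above it. Of the 9 genes at a log2 ratio of -1 or lower in siLuc cells, 2 remained there, as did 1 of the 7 in siStau1 cells. ZNF708 kept a GC-centred log2 ratio of -2.30 in siLuc cells and -0.71 in siStau1 cells. Genes with and without the KRAB-box motif changed order: among expressed genes the medians in siLuc cells were 0.27 for 107 with it and 0.74 for 42 without it as deposited, and 0.73 and 0.32 GC-centred.

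Genes known to bind transposable elements were mostly expressed before treatment. Of 10 such genes, 8 were tested in each arm, and 1 was called with decitabine in siLuc cells and 0 in siStau1 cells, where Cuffdiff gave ZNF611 and ZNF765 unadjusted p-values of 0.0313 and 0.0457. The share in siLuc cells is near the 13.5% called over all genes. The called gene was ZNF534, which binds the HERVH family: in siLuc cells it was at 0 with DMSO and at 1.76 FPKM with DAC, and in siStau1 cells at 0.0109 and 0.943 FPKM (q = 0.00162 and 0.582 in the authors' deposited table). ZNF587 and ZNF417, a pair of close paralogues that bind HERV-K elements among others, had 9.68 and 3.58 FPKM in siLuc DMSO and 18.3 and 5.63 in siLuc DAC, and were not called. ZNF611, ZNF649, ZNF765 and ZNF808 lay between 4.84 and 6.83 FPKM in siLuc DMSO and between 6.19 and 9.43 in siLuc DAC. ZNF91, which represses SVA elements, had 3.73 FPKM with DMSO and 1.40 with DAC in siLuc cells, and 6.34 and 3.29 FPKM in siStau1 cells. ZNF93 and ZNF676 were at 0 with DMSO and at most 0.0918 FPKM with DAC. Reads of such close copies may be shared between genes, and how the authors assigned them is not given in the sources used here.

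Of 10 genes known to be methylated in tumours, 9 had less than 0.1 FPKM with DMSO in either arm, and ZNF177 was the exception at 1.21 (siLuc) and 1.79 (siStau1) FPKM. ZNF331 and ZNF677 rose in both arms and ZNF132 in siStau1 cells, by the authors' test, which covered 6 of the 10 in siLuc cells and 5 in siStau1 cells. Over all genes tested, 8.71% and 4.56% were called higher. ZNF331 was at 0 with DMSO in both arms and at 1.4 (siLuc) and 0.643 (siStau1) FPKM with DAC. ZNF677 was likewise at 0 with DMSO and had 0.792 and 1.13 FPKM with DAC. ZNF132 had 0.0336 and 2.58 FPKM in siLuc DMSO and DAC (q = 0.603), and 0 and 0.914 in siStau1 DMSO and DAC (q = 0.00162), in the authors' deposited table. ZNF671 had 0.0139 and 0 FPKM with DMSO and 1.91 and 0.926 with DAC, without a call. The others stayed lower: ZNF583 had 0.617 and 0.139 FPKM with DAC, ZNF582 0.281 and 0.178, ZNF154 0.223 and 0.104, ZNF382 0.0468 and 0, and ZNF781 was at 0 in all 4 groups. This list was written with earlier results of these data known.

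Without decitabine, no gene of the family passed the authors' test between siStau1 and siLuc cells. Of 149 tested, 0 were called by Cuffdiff in the authors' deposited table, beside a background of 0.799% (0.333% higher, 0.466% lower). An unadjusted p under 0.05 was given for 5 of them, beside 684 of 15893 genes in all. Adjusting the authors' p-values within this comparison alone also gave 0. The median log2 ratio of the knockdown over the control was -0.02, with 73 genes higher and 80 lower, beside -0.02 over all genes. ZNF genes on other chromosomes had a median of 0.06, and that of other coding genes of chromosome 19 was -0.28. GC-centred, the family's median was -0.14, beside 0.04 and -0.04 for the same groups of genes.

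With decitabine present, 1 of 187 genes was called, beside a background of 0.904% (0.434% higher, 0.469% lower). By the same test 8 had an unadjusted p under 0.05, beside 1199 of 17263 genes in all. The called gene was ZNF708, higher in siStau1 DAC (2.27 FPKM) than in siLuc DAC (0.552, with q = 0.0455 in the authors' deposited table). The siLuc DAC group also gave the fall of ZNF708 with decitabine, so the 2 calls share libraries. The call is lost when p-values are adjusted within this comparison alone. The median log2 ratio over the 154 genes was -0.15, with 55 higher and 99 lower, beside -0.09 over all genes, -0.12 for ZNF genes on other chromosomes and -0.50 for other coding genes of chromosome 19, of which 628 of 699 were lower. GC-centred it was -0.29, with 28 of 154 higher, and those of the same groups of genes -0.13 and -0.01. The family thus stood above the other coding genes of its chromosome as deposited and below them after centring. The difference between arms in the ratio for decitabine had a median of -0.13 (siStau1 minus siLuc), beside -0.01 over all genes. It was -0.14 for ZNF genes on other chromosomes and -0.20 for other coding genes of chromosome 19. GC-centred, the median difference was -0.15 for the family, -0.14 for ZNF genes on other chromosomes and 0.03 for other coding genes of chromosome 19.

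Among the 19 switched-on genes, 17 were lower in siStau1 DAC than in siLuc DAC, with a median log2 ratio of -0.58. The exceptions were ZNF677 (0.792 FPKM in siLuc and 1.13 in siStau1 cells with DAC) and ZNF223 (0.746 and 0.804). ZNF529 and ZNF132 had the lowest ratios, at -1.58 and -1.40. None of the 19 was called by Cuffdiff in this comparison: the lowest q in the authors' deposited table was 0.122, for ZNF132, and 1 had an unadjusted p under 0.05. The same pattern was present in 34 of the 38 switched-on other coding genes of chromosome 19, and in 307 of 428 coding genes (71.7%). GC-centred, all 19 genes of the family were lower, with a median of -0.82, as were 23 of the 38 and 255 of the 428.

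ZNF274, ZNF350 and ZNF224, chosen for their known roles, were not called in any comparison. ZNF274, which binds the 3' ends of other zinc finger genes and recruits SETDB1 there, had 6.29 FPKM with DMSO and 10.8 with DAC in siLuc cells, and 4.17 and 7.21 FPKM in siStau1 cells. ZNF350 (ZBRK1), a partner of BRCA1, had 2.25, 8.68, 1.30 and 3.0 FPKM in the same order (q = 0.0844 for decitabine in siLuc cells in the authors' deposited table). ZNF224 had 5.54, 6.69, 6.10 and 6.37 FPKM.

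The machinery through which KRAB proteins act was expressed in all groups, and where it was called with decitabine it was lower. Of 21 genes for corepressors, heterochromatin proteins and DNA methyltransferases, all tested, 5 fell in siLuc cells and 0 rose, beside the background of 4.78% lower. They were the histone deacetylase HDAC2, the chromatin remodellers SMARCAD1 and ATRX, and FAM208A and MPHOSPH8 of the HUSH complex, which silences transposable elements. Their log2 ratios in siLuc cells were -1.14 for HDAC2, -1.36 for SMARCAD1, -1.76 for ATRX, -1.30 for FAM208A and -1.87 for MPHOSPH8, and GC-centred they were -0.39, -0.40, -0.80, -0.35 and -1.44. In siStau1 cells HDAC2 and ATRX fell, beside a background of 2.89% lower, with log2 ratios of -1.04 and -1.28 (GC-centred -0.44 and -0.56). SMARCAD1 and FAM208A, not called there, turned from -0.53 and -0.58 to 0.19 and 0.15 when GC-centred. ATRX had 26.1 FPKM with DMSO and 7.60 with DAC in siLuc cells, and 45.1 and 18.5 FPKM in siStau1 cells. TRIM28 itself was abundant, at 349, 680, 328 and 486 FPKM in the same order, and was not called (q = 0.172 for decitabine in siLuc cells in the authors' deposited table). Its log2 ratios of 0.96 and 0.57 with decitabine were -0.15 and -0.22 GC-centred. With the knockdown in DMSO, Cuffdiff called 0 of the 21, and 0 had an unadjusted p under 0.05 in the authors' deposited table. Over all 15893 genes tested there, the counts were 127 and 684. SMARCAD1 and ATRX were higher in siStau1 DAC than in siLuc DAC by the authors' test, beside a background of 0.434% higher. Their log2 ratios were 1.26 and 1.27, and 0.64 and 0.65 GC-centred. These comparisons share the siLuc DAC libraries with the falls above.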

How the data were processed

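The deposited total RNA table is in the layout of Cuffdiff, per the file headers, and holds 1 FPKM value the authors made per gene and group of 2 libraries, with a p-value and a q-value the authors computed for each of 6 pairwise comparisons. The submitters' processing notes name bcl2fastq 2.20, HISAT2 2.1.0, featureCounts, DESeq 1.36.0, Cuffdiff 2.2.1 and Cuffnorm 2.2.1, and the build hg38, without saying which step used which. The table has no value per library, so its depth is unknown, and the planned limma fits, the fits without single replicates and the replicate block were not run. The labels do not say that the 2 libraries of a group came from separate cultures, so the authors' p-values may measure technical spread only. The deposited J2 tables, which list repeats with no gene names or positions, were not used here.

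Genes were matched by identifier to GENCODE release 29 (GRCh38), and all 58699 were found. Ratios are log2((FPKM + 0.1)/(FPKM + 0.1)), which understates changes of low genes. Medians cover genes with a mean of at least 1 FPKM over the 4 groups. GC-centred ratios subtract the median of coding genes in the same of 20 equal bins of transcript GC content. Finger motifs were C-x2-C-x12-H-x(3 to 5)-H, and the KRAB-box motif a short pattern around its conserved core, both searched in translations of the longest annotated coding sequence. Promoters are RefSeq's (GRCh38.p14). The steps were tested on simulated data (python 3.11.15, pandas 2.3.3, numpy 2.4.6, scipy 1.17.1, matplotlib 3.10.9).

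Genes were named by rule: in each comparison, the 6 largest rises and 6 largest falls among calls with at least 1 FPKM in either group; the 10 highest in siLuc DMSO; genes at 0 in both DMSO groups with at least 1 FPKM in both DAC groups, or the reverse; and lists of transposon-binding, tumour-methylated and corepressor genes. Others are said in the text to be chosen after their values were seen, as were the switched-on genes. The genes and the lists were chosen with earlier results of these data known. Alternatives varied the q-value limit, its adjustment, the pseudocount, the filter, the centring and the gap between clusters.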

Additional observations from a re-analysis of the deposited data

How the results depend on the processing

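Of 59 alternative values computed for 16 results, 48 stayed on the same side and within the yardsticks used: 1.5 times for a count, the 95% order-statistic interval over genes for a median, and 0.1 for a log2 ratio of shares. At a q-value limit of 0.01, 9 genes were called with decitabine in siStau1 cells and 0 for the knockdown in DAC, and adjustment within the comparison also gave 0 there. GC centring moved the median log2 ratio to 0.68 for decitabine in siLuc cells, 0.51 in siStau1 cells and -0.29 for the knockdown in DAC, and centring on all genes moved the last to -0.0641. As a share of all genes outside the 10 highest, the summed level had log2 ratios of 0.10, 0.21 and 0.17 for decitabine in siLuc cells, in siStau1 cells and the knockdown in DAC, the last reversed from -0.0074. With at least 1 FPKM required in both DAC groups, an alternative added after the data were seen, 7 genes were switched on. The cause of these shifts was not tested. Centred on the median of all genes, 15 of the 19 switched-on genes were lower in siStau1 DAC than in siLuc DAC. No paired analysis was possible because the table holds no value per library and its columns carry no replicate numbers. For the same reason no library could be left out. Without a depth or a spread, a level listed at 0 cannot be told apart from one below detection, and no interval can be given for any level or ratio.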
